A study of Mus musculus with 4 samples.

Results

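The miR-130/miR-301 family was examined in splenic CD4+ T cells of the strains C57BL/6J (B6) and MRL/lpr-Tnfrsf6lpr (MRL/lpr). The latter is the lupus model strain that carries the *lpr* mutation of *Fas*. The mice were females of 16 weeks, and their T cells were enriched by magnetic depletion of the other spleen cells. From each strain 1 small RNA library and 1 mRNA library were sequenced. The labels give 1 identifier per strain and the design text counts 2 B6 mice, so the number of mice behind a library is not settled. The members were all listed mature miRNAs, of either arm, from the hairpins Mir130a, Mir130b, Mir301a and Mir301b, together with the lower mRNAs that the authors' table pairs with them. This gave 3 of the 114 listed miRNAs, namely miR-130b-3p, miR-301b-3p and miR-130a-3p, and 5 of the 212 mRNAs listed as lower in MRL/lpr, namely *Tet3*, *Mdn1*, *Rem2*, *Adam12* and *Adcy1*. A miRNA entered the lists if its level differed at least 2-fold and its reads in the pair of libraries added up to at least 100. No mature miRNA of hairpin Mir301a and no 5p arm of the family was listed, and nothing is read from their absence. Since each strain had 1 library per assay, there was no replicate error and no test between strains was made. Effects of strain, of disease and of the mice sampled cannot be told apart.

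A miRNA guides the silencing complex to mRNAs through its seed, bases 2 to 8 from the 5′ end, which pairs mostly with sites in the 3′ untranslated region. MiRNAs with one seed are therefore predicted to hold back the same mRNAs. The miR-130/miR-301 family has been linked in other systems to TGF-β signalling and to the nuclear receptor *Pparg*, and in mouse CD4+ T cells miR-301a has been tied to the formation of Th17 cells. Of the mRNAs paired with it here, *Tet3* encodes a dioxygenase that oxidises 5-methylcytosine, a step in DNA demethylation, and *Mdn1* encodes midasin, a very large ATPase that matures the large ribosomal subunit.

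The mature sequences are shown because the whole pairing with mRNAs rests on their shared seed, printed in capitals. The first 3 are the deposited sequences with U for T, and that of miR-301a-3p, the closest relative outside the lists, is from RefSeq (GRCm38.p6).
miR-130b-3p: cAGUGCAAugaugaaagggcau
miR-301b-3p: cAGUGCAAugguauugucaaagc
miR-130a-3p: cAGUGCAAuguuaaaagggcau
miR-301a-3p: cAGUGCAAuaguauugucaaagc
All 4 carry the seed AGUGCAA. MiR-130a-3p and miR-130b-3p differed at 2 of 22 positions, and miR-301b-3p and miR-301a-3p at 1 of 23. The 3 listed members were identical over their first 10 bases. In RefSeq, 7 of 1679 mature mouse miRNA names carry this seed, among them miR-130c, miR-721, miR-6341 and miR-6389, and 2 of the 7 were listed. The remaining listed member, miR-301b-3p, has no mature entry in the RefSeq table, but its deposited sequence was found within the RefSeq hairpin.

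The hairpins of miR-130b and miR-301b lie 257 bases apart on the minus strand of chromosome 16. They are shown because the more abundant of the listed members come from this pair. The capitals mark the mature 3p arm.
Mir130b hairpin: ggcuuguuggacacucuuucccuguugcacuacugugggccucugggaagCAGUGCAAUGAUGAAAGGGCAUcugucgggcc
Mir301b hairpin: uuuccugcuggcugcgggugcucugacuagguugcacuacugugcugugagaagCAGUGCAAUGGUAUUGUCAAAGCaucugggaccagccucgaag
In GRCm38.p6 the 3p arm of miR-130b is at chr16:17124071-17124092 and that of miR-301b at chr16:17124420-17124442. RefSeq places both hairpins within the span of the protein-coding gene *2610318N02Rik*. MiR-130a-3p comes from chromosome 2, at chr2:84741116-84741137, and overlaps no other gene of the RefSeq table. The hairpin of miR-301a lies on chromosome 11 within *Ska2*, a gene of the spindle and kinetochore complex. Neither *2610318N02Rik* nor *Ska2* was in the mRNA tables.

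All 3 listed family members were higher in MRL/lpr, where 60.5% of all listed miRNAs were higher. MiR-130b-3p, the most abundant of them, had 612 reads in B6 and 1723 in MRL/lpr, or 18.2 and 57.5 RPM, the reads scaled to a library of 1e6 trimmed reads. Its fold, MRL/lpr over B6, was 3.16 (95% interval 2.88 to 3.47). Intervals of folds come from exact binomial (Clopper-Pearson) limits on how the reads divide between the libraries, and they cover counting error only, since amplified reads are not independent molecules. MiR-301b-3p had 245 and 621 reads, or 7.28 and 20.7 RPM, and a fold of 2.84 (95% interval 2.45 to 3.31). Both members of the chromosome 16 pair thus kept nearly the same ratio of reads, with 2.50 reads of miR-130b-3p for each read of miR-301b-3p in B6 and 2.77 in MRL/lpr. The fold of miR-130b-3p was 1.11 times that of miR-301b-3p, and the counting interval of this ratio, 0.929 to 1.33, includes 1.

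**Figure D1:**
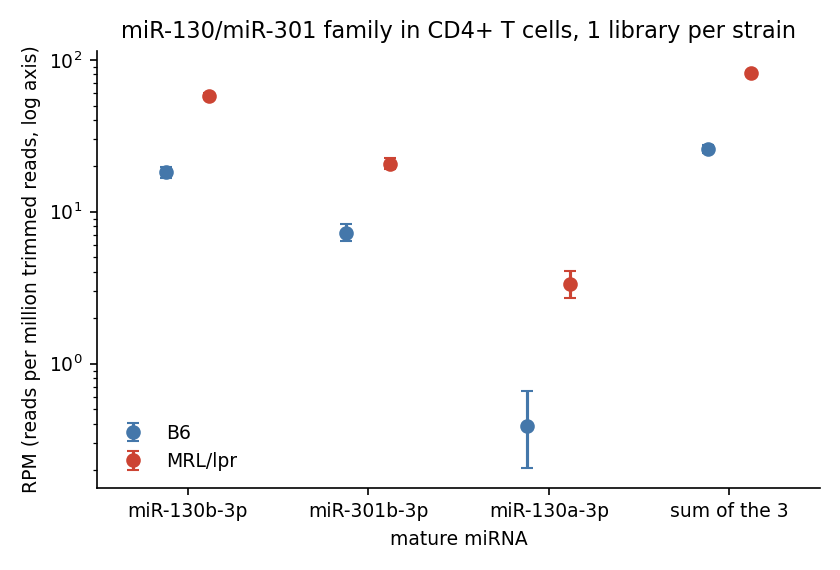
RPM (log axis) of the 3 listed miR-130/miR-301 members and of their sum in the B6 (blue) and MRL/lpr (red) small RNA library, 1 library each, with exact Poisson intervals that cover counting error only. Every member lies higher in MRL/lpr, with miR-130b-3p at 57.5 RPM and miR-130a-3p at 3.34 RPM there.

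MiR-130a-3p was rare, with 13 reads in the B6 library, or 0.387 RPM, and 100 reads in the MRL/lpr library, or 3.34 RPM. Its fold of 8.63 was the least certain among the listed members, with a counting interval of 4.83 to 16.8. It passed the minimum of 100 reads through the MRL/lpr library, and only 4 of the 114 listed miRNAs had fewer reads over both libraries. That filter favours a large fold in a miRNA this rare, so its fold is not set against those of the other members. In each library miR-130a-3p had far fewer reads than the near-identical miR-130b-3p. How reads that match both miRNAs were assigned is not given in the sources used here, so the level of miR-130a-3p carries this added uncertainty.

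Counted together, the 3 members had 870 reads in B6 and 2444 in MRL/lpr, or 25.9 and 81.5 RPM, 3.15-fold higher (95% interval 2.92 to 3.41). MiR-130b-3p made up 70.3% of these reads in B6 (exact 95% interval 67.2 to 73.4) and 70.5% in MRL/lpr (68.6 to 72.3). MiR-301b-3p made up 28.2% (25.2 to 31.3) and 25.4% (23.7 to 27.2), and miR-130a-3p 1.49% and 4.09%. The reads of the 3 listed members thus came mostly from the chromosome 16 pair in both libraries. Levels of unlisted miRNAs with the same seed are not known. The shares of miR-130a-3p are a description only, since its MRL/lpr reads carried it into the lists. They are given without intervals and are not compared between the libraries.

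The listed members were neither among the largest differences nor among the most abundant miRNAs. Of the 69 higher miRNAs, whose median fold was 5.67, miR-130b-3p ranked 52 by fold and miR-301b-3p ranked 57. MiR-130a-3p ranked 22, a place favoured by its entry through the MRL/lpr reads. By RPM in MRL/lpr, miR-130a-3p, miR-130b-3p and miR-301b-3p ranked 66, 26 and 37, against a median of 22.6 RPM over the 69. As a share of the authors' miRNA total the listed members together stood at 0.0143% in B6 and 0.0375% in MRL/lpr.

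**Figure D2:**
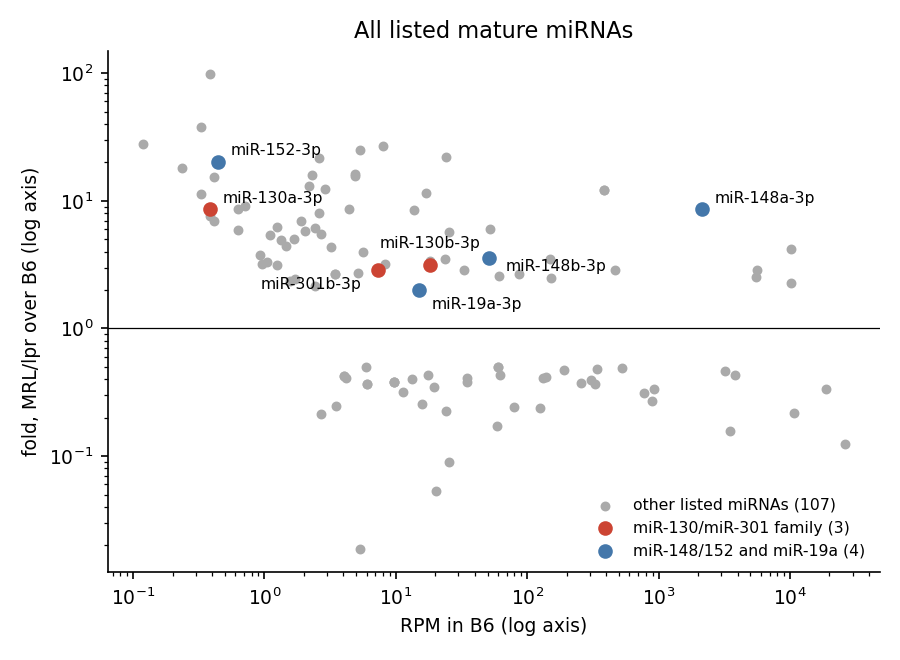
RPM in B6 against the fold, MRL/lpr over B6 (both log axes), for the 114 listed mature miRNAs, with the miR-130/miR-301 family in red and the miRNAs of neighbouring seeds in blue. The listed members of the family sit at 2.84-fold to 8.63-fold, with miR-130b-3p and miR-301b-3p below the median fold of the higher miRNAs, 5.67.

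Other listed miRNAs have seeds that overlap AGUGCAA when moved by 1 base. They are shown beside the family because they hold 6 of its 7 seed letters and so could be taken for it.
miR-148a-3p: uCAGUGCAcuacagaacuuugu
miR-19a-3p: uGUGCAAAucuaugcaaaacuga
MiR-148a-3p was far more abundant, with 2152 RPM in B6 and 18387 in MRL/lpr. Together with miR-148b-3p and miR-152-3p, its family had 2204 and 18578 RPM. The summed RPM of the listed miR-130/miR-301 members came to 1.17% and 0.439% of these. RPM is not calibrated between miRNAs, so these need not be ratios of molecules. MiR-19a-3p had 15.0 and 30.0 RPM, levels near those of miR-130b-3p and miR-301b-3p, and a fold of 2.01 (95% interval 1.80 to 2.24). The miR-148/miR-152 family is paired with 8 lower mRNAs and miR-19a-3p with 9. None of these was among the 5 paired with the miR-130/miR-301 family, which are 2.36% of all lower mRNAs. With counts this small, the lack of a shared gene says nothing of how far the overlapping seeds are told apart.

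The folds depend on what the reads are scaled to. The authors divided by all trimmed reads, which numbered 33634335 for B6 and 29971024 for MRL/lpr, and their miRNA totals were 18.1% and 21.8% of these. Scaled to these miRNA totals, the folds were 2.63 for miR-130b-3p, 2.37 for miR-301b-3p and 7.18 for miR-130a-3p. With all listed miRNAs but the erythroid ones as the scale, they were 2.47, 2.22 and 6.75, and the counting interval of miR-301b-3p, 1.91 to 2.59, then included 2. All 3 members thus stayed at 2-fold or more, as did 57% of the 114 listed miRNAs under the first scaling and 54.4% under the other. The second scale holds only miRNAs listed for a 2-fold difference between these same libraries, so it is not a neutral library size. It leaves out all unlisted miRNAs and not the erythroid ones alone. With 10 RPM added to both libraries only miR-130b-3p remained at 2-fold, beside 30.7% of the 114, and with 100 RPM added no member did, beside 12.3%. MiR-130b-3p was also the only member with at least 1000 reads over both libraries, a level that 28.9% of the 114 reached as higher miRNAs.

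**Figure D3:**
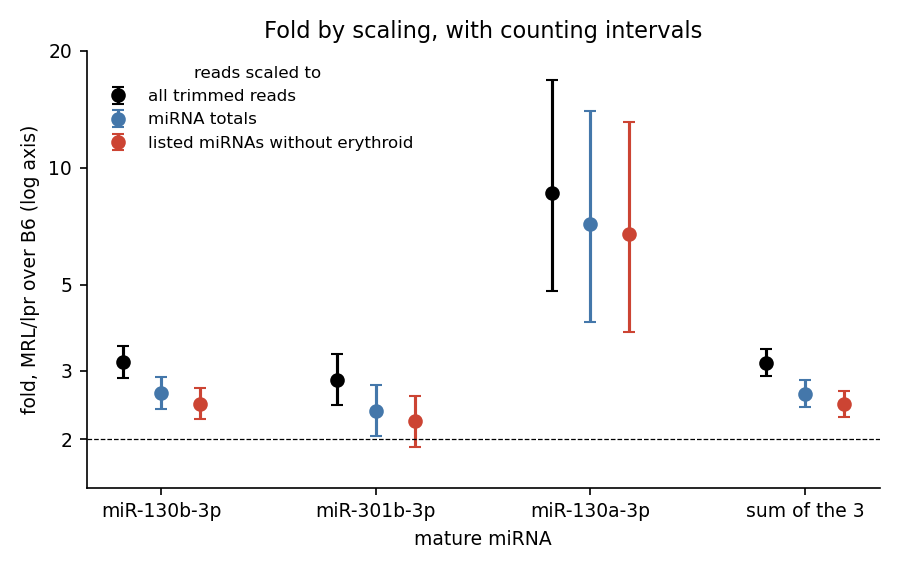
Fold, MRL/lpr over B6 (log axis), of the 3 family members and of their summed reads with the reads scaled to all trimmed reads (black), to the authors' miRNA totals (blue) or to all listed miRNAs but the erythroid ones (red). Bars are 95% counting intervals and the dashed line marks 2-fold, which under the last scaling falls within the interval of miR-301b-3p, 1.91 to 2.59.

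The mRNAs paired with the family are those of the table of lower mRNAs, which were 32.5% of the 652 mRNAs in both tables. Their direction was fixed by that choice. Values are read as FPKM, a level scaled to transcript length and library size, a unit the tables do not name. All 5 genes are paired with all 3 listed family members at once, so the table treats the family as a single seed.

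*Tet3* had the highest level of the 5, at 20.4 FPKM in the B6 library against 9.16 in that of MRL/lpr, and its log2 fold was -1.15. *Mdn1*, the midasin gene, stood at 17.2 against 7.16 FPKM, with a log2 fold of -1.27. MRL/lpr thus held 45.0% of the B6 level of *Tet3* and 41.5% of that of *Mdn1*. These were the only paired genes above 10 FPKM in B6, at ranks 37 and 44 by B6 level among the 212 lower mRNAs. By the size of the fall they ranked 179 and 159, among the smaller falls in the table.

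*Rem2*, a small GTP-binding protein that restrains voltage-gated calcium channels, stood at 1.31 FPKM in B6 against 0.257 in MRL/lpr, with a log2 fold of -2.35, the largest fall of the 5. *Adam12*, a membrane-bound metalloprotease of the disintegrin family, had 0.282 and 0.0907 FPKM, a log2 fold of -1.64. *Adcy1*, a calmodulin-stimulated adenylyl cyclase best known from neurons, had 0.0359 and 0.0179 FPKM. *Adam12* and *Adcy1* were below 1 FPKM in both libraries, where few fragments stand behind a fold. *Adcy1* stood just inside the 2-fold limit of the table, 2.01-fold lower in MRL/lpr, at rank 211 of 212 by the size of the fall. In bulk libraries, fewer cells of a type and less RNA per cell cannot be told apart.

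**Figure D4:**
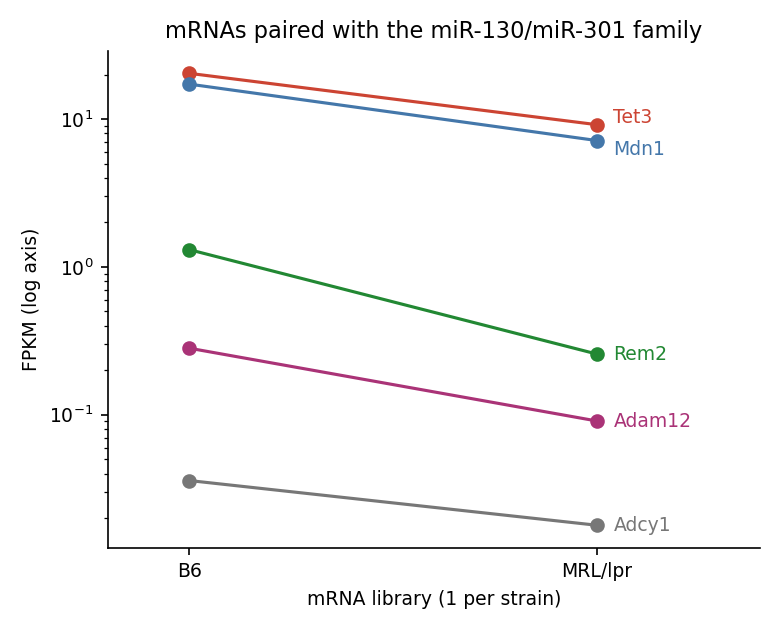
FPKM (log axis) of the 5 mRNAs paired with the miR-130/miR-301 family in the B6 and the MRL/lpr mRNA library, 1 library each, so no error bars can be drawn. The lines run from 20.4 to 9.16 for *Tet3*, from 17.2 to 7.16 for *Mdn1* and from 1.31 to 0.257 for *Rem2*, while *Adam12* and *Adcy1* stay below 1.

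The paired mRNAs had a smaller median fall than the table as a whole on the deposited values. Their median log2 fold was -1.27, and that of all 212 lower mRNAs was -1.56. Their median level in B6 was 1.31 FPKM, against 1.95 FPKM over the table. Of the 5 genes, 3 had at least 1 FPKM in B6, as did 56.6% of the lower mRNAs. Only *Rem2* was at least 4-fold lower, as were 29.2% of the lower mRNAs. With 1 FPKM added to both libraries, *Tet3* and *Mdn1* remained at least 2-fold lower, beside 41.5% of the table, and the median log2 folds were -0.88 for the paired genes and -0.85 for the table.

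**Figure D5:**
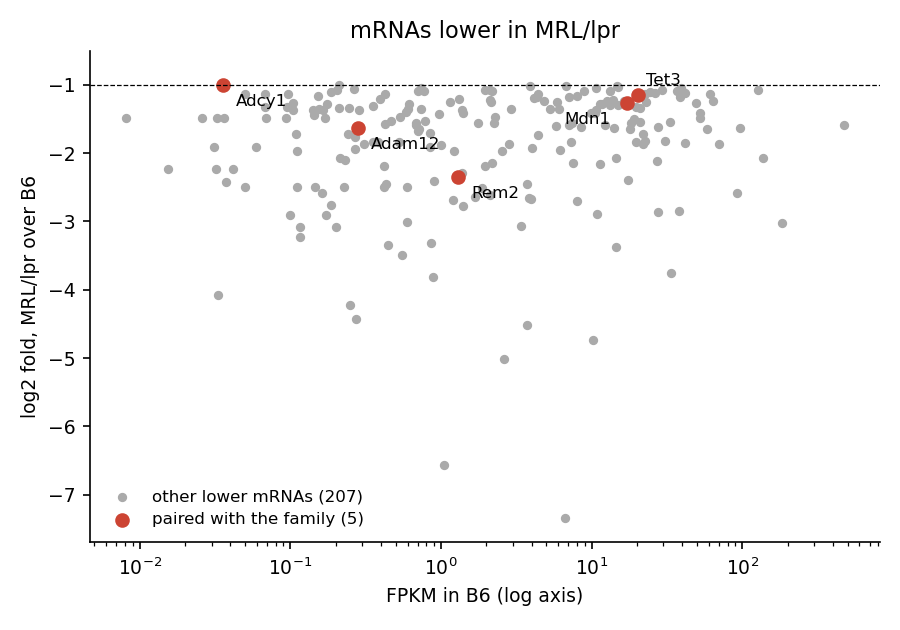
FPKM in B6 (log axis) against the log2 fold, MRL/lpr over B6, of the 212 lower mRNAs, with the 5 paired with the miR-130/miR-301 family in red and the dashed line at 2-fold lower. *Tet3* and *Mdn1* lie near the line, at -1.15 and -1.27, *Adcy1* lies almost on it, and *Rem2* lies farthest from it, at -2.35.

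Of the 5 genes, *Mdn1* and *Adam12* are paired with the family alone and 3 with 1 further higher miRNA each. For *Tet3* this is miR-381-3p, which is encoded in the imprinted *Dlk1*-*Dio3* region and stood at 2.17 RPM in B6 against 28.1 in MRL/lpr, 12.9-fold higher (95% interval 10.2 to 16.7). For *Rem2* it is miR-330-5p, with 0.951 and 3.04 RPM and a fold of 3.19 (95% interval 2.11 to 4.94). For *Adcy1* it is miR-23a-3p, the most abundant of these, with 86.0 and 228 RPM and a fold of 2.66 (95% interval 2.54 to 2.77). The RPM of miR-381-3p in MRL/lpr lay between those of miR-301b-3p and miR-130b-3p. Counting miRNAs of one seed once, 2 of the 5 genes are paired with a single seed, as are 73.6% of the lower mRNAs.

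The number of paired genes was near the middle of the table. The 51 higher miRNAs with at least 1 lower mRNA had 1 to 14 of them, with a median of 6, and each family member had 5. The miRNAs that share a gene with the family had more, with 14 for miR-330-5p, 11 for miR-381-3p and 9 for miR-23a-3p. A miRNA with many lower mRNAs more readily shares one, so this way of choosing them favours high numbers.

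*Tet3* has 2 relatives in mouse, *Tet1* and *Tet2*, which were looked up after the value of *Tet3* had been seen. *Tet1* was also in the table of lower mRNAs, at 1.86 FPKM in B6 against 0.328 in MRL/lpr, with a log2 fold of -2.50. It is paired there with miR-31-5p and miR-196b-5p and not with the miR-130/miR-301 family. *Tet2* was in neither table and is not read as unchanged.

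Of 22 genes known from other systems as targets of the family, *Pparg*, *Tgfbr1*, *Tgfbr2* and *Smad4* among them, none was in the table of lower mRNAs and 1 was in that of higher ones. This was the cytokine gene *Tnf*, at 16.6 FPKM in B6 against 68.4 in MRL/lpr. Of 24 genes of TGF-β and BMP signalling, 1 was listed, the co-receptor *Tgfbr3*, as lower and paired with other miRNAs. The tables hold 0.913% of the 21900 protein-coding symbols of RefSeq as lower and 1.89% as higher, unexpressed genes included. Counts this small say nothing particular of either list. Further lists were looked up, beside 2.80% of all these symbols in either table. The share was 18.2% for T cell receptor and costimulation brakes, 29.2% for Wnt signalling, 21.4% for apoptosis and 0% for the miRNA pathway. None of these genes was paired with the family, and the shares were not tested. A gene outside the tables may have been under 2-fold or not a predicted target of a changed miRNA.

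None of the T cell markers *Cd3e*, *Cd4* and *Cd28* was listed, so the labelled cell type could not be checked by these 3 genes. A marker that was not listed is not read as absent, and other genes of T cells were not looked up for this check. MiRNAs of other cells were higher in the same small RNA library of MRL/lpr as the family. All 6 listed miRNAs of the erythroid hairpins Mir144, Mir451a, Mir486 and Mir3107 were higher, and their summed level was 389 RPM in B6 against 4745 in MRL/lpr, with identical sequences counted once. Among them miR-144-3p was 97.5-fold higher, miR-451a 38.0-fold and miR-486-5p 12.1-fold. MiR-223-3p, a miRNA of myeloid cells that was looked up after its value had been seen, had 7.94 and 215 RPM, 27.1-fold higher. In the mRNA tables, of 5 myeloid markers only *Itgam* was listed, at 1.71 FPKM in B6 against 28.1 in MRL/lpr, and of 4 megakaryocyte and platelet markers only *Ppbp*, at 0.0332 and 1.67 FPKM. Of 5 erythroid markers only *Tfrc* was listed, at 15.9 and 37.9 FPKM, and of 3 endothelial markers only *Cdh5*, at 0.0840 and 0.228 FPKM. *Klrd1*, of 3 CD8 T and NK cell markers, had 27.0 and 6.22 FPKM, and none of 3 B cell markers was listed. The part of these cells in the higher family miRNAs and in the lower paired mRNAs was not tested.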

How the data were processed

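Small RNA and mRNA libraries of B6 and MRL/lpr were compared, with 1 library per strain and assay. The authors deposited the read counts of each mature miRNA, the RPM (reads over all trimmed reads) and the ratio of RPM values as a fold; for all 114 miRNAs both followed from the counts within 1e-06. The authors deposited mRNA values called raw, read as FPKM because the column names are those of Cuffdiff. The log2 folds, signed fold scores, p-values and q-values that the authors deposited for mRNAs hold their own comparison and were not used. For the aligner, build and miRBase release: not given in the sources used here. The design text counts 2 B6 mice, while the labels give 1 identifier per strain and no number of mice.

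The step of 1 read was 0.0297 RPM (B6) or 0.0334 RPM (MRL/lpr), while the depth of the mRNA libraries is unknown. Folds, exact 95% intervals (Clopper-Pearson, Poisson, conditional odds ratio) and medians were computed in Python (version 3.11.15) using SciPy 1.17.1 on NumPy 2.4.6. Matplotlib 3.10.9 drew the plots. Only the Clopper-Pearson intervals of folds were tried on simulated counts. Those counts held counting error alone, so the trial says nothing of amplified reads. No test was made with 1 library per strain. Pairs were taken from the table of lower mRNAs, whose prediction list carries the label NTR_TS and gives no score. All listed family miRNAs and all paired genes are named, with the miRNAs that share most genes with the family and those of overlapping seeds. The members and lists were chosen with earlier results of these data known. A gene and a list built on it are not reported here. Alternatives were added values, other scalings, minimum levels, a 4-fold limit and genes paired with the family alone. Target sites were not searched, since transcript sequences were not used here.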

Additional observations from a re-analysis of the deposited data

How the results depend on the processing

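Depth limits miR-130a-3p most, with 13 reads in B6. With 10 and 100 RPM added to both libraries, the folds became 2.39 and 1.33 for miR-130b-3p, 1.78 and 1.13 for miR-301b-3p, 1.28 and 1.03 for miR-130a-3p, and 2.55 and 1.44 for the summed reads. With 1 RPM added, miR-130a-3p fell to 3.13 and the others stayed within their counting intervals. Scaled to the miRNA totals, the folds were 2.63 for miR-130b-3p, 2.37 for miR-301b-3p and 2.62 for the sum. With all listed miRNAs but the erythroid ones as the scale, they were 2.47, 2.22 and 2.46, though that scale holds only miRNAs chosen for their difference. The fold of miR-130a-3p stayed within its interval under both scalings, and that of the sum without miR-130b-3p was 3.14. The 3 family members at 2-fold or more became 1 with 10 RPM added, 0 with 100 RPM added and 1 with at least 1000 reads; of all 114 listed miRNAs 30.7%, 12.3% and 28.9% then passed as higher. The 5 paired genes became 3 at 1 FPKM or more in B6, 1 at 4-fold, 2 with 1 FPKM added and 2 when paired with the family alone. Their median log2 fold was -1.14 with 0.1 FPKM added, -0.88 with 1 FPKM added and -1.45 for the genes paired with the family alone. Over all 212 lower mRNAs the added values gave -1.23 and -0.85, so with 1 FPKM added the paired genes no longer had the smaller median fall. Added values shrink the folds of low genes by construction, and an equal value or factor of this size cannot turn them, so keeping its direction says nothing of how stable a result is. No paired analysis was possible because no group has more than 1 library.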
